A study of Mus musculus with 6 samples.

Results

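Fibroblasts were the collagen-producing cells among the barcodes of CD45+ cell preparations from B16-F10 tumors, a transplanted mouse melanoma. Members were chosen by their UMI counts (unique molecular identifiers, the counted RNA molecules) among barcodes with at least 600 genes and at most 10% mitochondrial UMIs. A member had at least 10 UMIs of Col1a1, Col1a2, Col3a1 and Dcn together and no UMI of Ptprc, the gene of CD45. It also had fewer than 10 UMIs of the melanocyte genes Pmel, Mlana, Dct and Tyrp1 and at most 2 UMIs of the endothelial genes Cdh5, Kdr and Egfl7. These limits chose 1143 members among 38294 kept barcodes, out of 52899 deposited. The αPD-1 samples held 80, 60 and 74 members (replicates 1 to 3), and the αPD-1 + corin samples held 617, 153 and 159.

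All tumors came from B16-F10 cells grown in female C57BL/6 mice aged 6 to 10 weeks at inoculation. Every mouse received 150 μg of an antibody against the checkpoint receptor PD-1, 3 times per week from day 7. The αPD-1 + corin group (3 samples) also received 200 μg of corin, an inhibitor of the CoREST chromatin complex, daily from day 6, and the αPD-1 group (3 samples) did not. Neither group was free of αPD-1, and the labels do not say which of the 10 mice per arm gave each sample or whether animals were pooled. P-values therefore measure the spread between these samples only. Tumors were dissociated, frozen, thawed, depleted of dead cells and enriched for CD45+ cells on magnetic beads before loading, so that the fibroblasts are cells that this enrichment did not remove.

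Fibroblasts build the connective tissue of a tumor. They secrete fibrillar collagens, proteoglycans and growth factors, and they release chemokines and complement proteins that act on immune cells. In resting tissue many carry a progenitor-like program with Ly6a, Pi16, Dpp4 and Dpt, whereas TGF-β turns them into contractile, matrix-depositing myofibroblasts marked by Acta2 and Tagln. Pericytes and smooth muscle cells, the mural cells of vessels, also express collagen and contractile genes and are not separated from fibroblasts by collagen alone.

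The members carried the transcripts of fibroblasts. All 15 fibroblast markers that the rule did not use (Lum, Pdgfra, Pdgfrb, Thy1, Sparc and others) were detected, and their summed level ran from 18448 to 23948 CPM (counts per 1000000 UMIs of the summed members) under αPD-1 and from 21991 to 27237 CPM under αPD-1 + corin. The same 15 genes summed to 1241 CPM in melanoma-gated cells, the barcodes selected in the same way on the 4 melanocyte genes. Other lineages were low. Endothelial markers summed to at most 218 CPM, melanoma markers to at most 52.9 CPM and Schwann cell markers to at most 11.4 CPM. The rule itself limited Cdh5, Kdr and Egfl7 of the endothelial list and Pmel, Mlana, Dct and Tyrp1 of the melanoma list. Low levels of these genes therefore follow from the choice of members. Krt5 and Krt14 of keratinocytes, Msln of mesothelium, Adipoq of adipocytes and Myod1, Myf5, Myog and Pax7 of skeletal muscle were at 0. Other genes of these lists were not: Krt10 of differentiated keratinocytes measured 10.4, 10.1 and 13.9 CPM under αPD-1 and 9.11, 10.8 and 7.15 CPM under αPD-1 + corin, and Des, a filament of muscle and mural cells, 11.1 to 73.4 CPM. Upk3b of mesothelium and Plin1 and Cidec of adipocytes reached at most 0.417, 1.43 and 0.715 CPM.

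Mural cells were the exception, by the level of the pericyte markers. All 7 pericyte markers and all 5 smooth muscle markers were detected, as were all endothelial, melanoma and Schwann cell markers. Pericyte markers summed to 1794, 463 and 1993 CPM under αPD-1 and to 771, 1007 and 511 CPM under αPD-1 + corin. Among them Ndufa4l2 measured 331, 234 and 328 CPM under αPD-1 and 523, 518 and 227 CPM under αPD-1 + corin. Rgs5 measured 927, 98.4 and 1056 CPM and 100, 286 and 95.8 CPM. Smooth muscle markers summed to 234, 184 and 411 CPM and to 38.1, 91.7 and 85.1 CPM, without overlap, and 2 of the 5 (Cnn1 and Actg2) fell. At least 3 UMIs of Rgs5, Higd1b, Kcnj8, Abcc9, Notch3, Cspg4 and Myh11 together were found in 222 members. They made up 23.8%, 36.7% and 35.1% of the members under αPD-1 and 15.4%, 24.2% and 14.5% under αPD-1 + corin. The samples of the groups overlapped in this share (exact permutation test, p = 0.2). Ndufa4l2, which is not among these genes, averaged 312 CPM in the members with fewer than 3 such UMIs. The members are therefore fibroblasts with a minority of mural-marked cells, and each result that moves with this share is given with and without them. The mark counts UMIs without thinning, so it also depends on depth. The median member held 8992, 12845 and 8028 UMIs in αPD-1 replicates 1 to 3. Replicate 2 had the highest mural share of these but the lowest Rgs5. How many mural-marked members are deeply sequenced fibroblasts was not tested.

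Leukocyte transcripts were also uneven. Macrophage and monocyte markers summed to 9.26, 42.6 and 16.4 CPM under αPD-1 and to 253, 175 and 27.9 CPM under αPD-1 + corin, with Lyz2 and the C1q genes among them. Neutrophil markers summed to 0, 30.4 and 0 CPM and to 103, 216 and 1.43 CPM, with the highest values in αPD-1 + corin replicates 1 and 2. In myeloid-gated cells the macrophage markers summed to 10656 CPM. The part of this RNA in the results was not tested beyond leaving out the members with an immune UMI. An immune UMI was one of Cd3d, Cd3e, Cd3g, Cd79a, Ms4a1, Tyrobp or the C1q genes. Members with UMIs of Lyz2 or of the neutrophil genes S100a8 and S100a9 but none of these stayed in.

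The limits of the rule cut through few cells. Marker sums of 10 to 14 UMIs were found in 19 members, and 23 further barcodes had 5 to 9 and met the other limits, whereas the median member had 268 and 881 members had at least 100. Collagen-positive barcodes with 1 Ptprc UMI numbered 49 and those with 2 or more numbered 232. A further 210 were left out for their melanocyte UMIs and 26 for their endothelial UMIs. The median member held between 7128 and 13973 UMIs per sample, and the groups overlapped. The sums per sample held from 790712 UMIs in αPD-1 replicate 3 to 5485834 UMIs in αPD-1 + corin replicate 1, so that the αPD-1 levels rest on fewer cells and UMIs. No member shared a barcode with a member of another sample, although any pair of libraries shared 10 to 32 barcodes.

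Members made up 1.44%, 1.29% and 1.29% of the kept barcodes under αPD-1. Their 95% intervals (Wilson, for counting error alone) lay between 1.00% and 1.78%. Under αPD-1 + corin the shares were 6.21%, 2.67% and 2.39%, with the lowest bound at 2.05%. All 3 αPD-1 + corin samples thus lay above all 3 αPD-1 samples. The means were 1.34% ± 0.0853 (SD, n = 3) and 3.75% ± 2.13 (SD, n = 3), a difference of 2.42 percentage points (two-sided exact permutation test, p = 0.1, the smallest that 3 samples against 3 allow). Without αPD-1 + corin replicate 1 the difference was 1.19 percentage points. The share has CD45+ cells as most of its denominator and was measured after enrichment for them, so a change in fibroblast number, in immune cell number and in the carry-over of CD45- cells cannot be told apart.

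**Figure D1:**
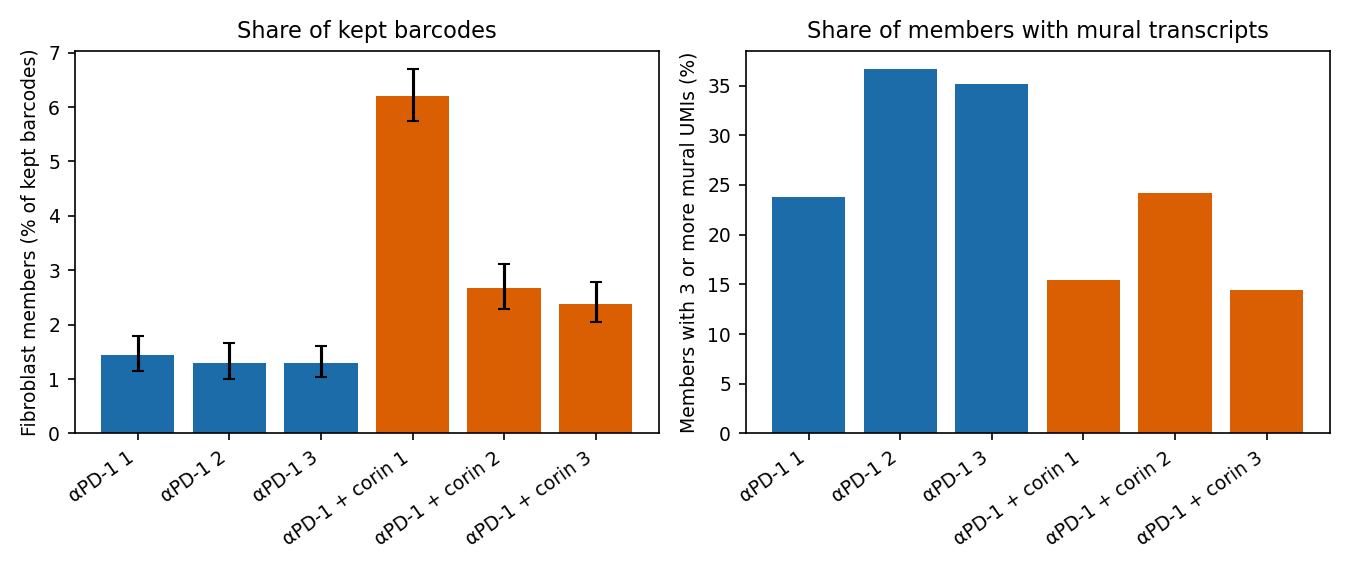
Left, fibroblast members as a percentage of kept barcodes in each sample, with bars for the 95% Wilson interval; right, percentage of the members with at least 3 mural UMIs. Blue bars are αPD-1 samples and orange bars αPD-1 + corin samples; the share of kept barcodes reached 6.21% in αPD-1 + corin replicate 1 and stayed at or below 1.44% under αPD-1, and the mural share overlapped between the groups.

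Gene expression was compared on the summed UMIs of the members of each sample, with edgeR's quasi-likelihood test and Benjamini-Hochberg adjustment over all 9256 genes tested, at an adjusted p threshold of 0.05. Under αPD-1 + corin 70 genes were higher (0.756% of the genes tested) and 78 were lower (0.843%). The median log2 fold change over all genes was -0.01. Levels of single genes are CPM after scaling by TMM size factors, whereas sums over marker lists and levels of mural-marked and other members apart are CPM without it. Gene lists are described by how many of their tested members passed in each direction and by their median log2 fold change. These counts rest on all 6 libraries. Without αPD-1 replicate 1, 2 or 3 the numbers of higher genes were 20, 16 and 9 and of lower genes 18, 28 and 21, and without αPD-1 + corin replicate 1, 2 or 3 they were 68, 21 and 284 and 38, 13 and 339. Of the named genes, 2 of 25 that rose (Ly6c1 and Prg4) and 10 of 21 that fell passed without each library in turn. Of these 46 genes 18, 21 and 15 passed without αPD-1 replicate 1, 2 or 3, and 37, 21 and 46 without αPD-1 + corin replicate 1, 2 or 3.

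Contractile genes were lower in fibroblasts from αPD-1 + corin tumors. Of 16 tested, 6 fell (Acta2, Tagln, Myl9, Cnn1, Tpm1 and Tpm2) and 0 rose, against 0.843% of all genes that fell, and the median over the 16 was -0.51. At an unadjusted p under 0.05, 10 were lower and 0 higher, and DESeq2 also called 6 lower and 0 higher. Acta2 (ENSMUSG00000035783, GRCm39 chr19:34217737-34232990, minus strand) encodes the smooth muscle actin of myofibroblasts. Its level was 1534, 1052 and 1841 CPM under αPD-1 and 467, 460 and 433 CPM under αPD-1 + corin. Every αPD-1 sample was at least 2 times as high as every αPD-1 + corin sample, and Acta2 fell by 1.70 ± 0.24 (SE) on the log2 scale (edgeR, adjusted p = 0.0115). Tagln, the actin-binding transgelin (ENSMUSG00000032085, GRCm39 chr9:45840909-45847404, minus strand), measured 1125, 1178 and 1524 CPM and 328, 329 and 350 CPM. The αPD-1 + corin samples lay close together, and Tagln fell by 1.93 ± 0.21 (SE) on the log2 scale (edgeR, adjusted p = 0.00337).

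Cnn1, the actin-binding calponin of smooth muscle, had the strongest change of the list. It measured 37.5, 36.6 and 35.7 CPM under αPD-1 and 1.99, 3.46 and 1.57 CPM under αPD-1 + corin, and fell by 3.93 ± 0.31 (SE) on the log2 scale (edgeR, adjusted p = 0.000886). Myl9, a myosin light chain, fell by 2.16 ± 0.33 (SE) on the log2 scale (edgeR, adjusted p = 0.015), from 344, 167 and 342 CPM to 42.6, 69.1 and 82.2 CPM. The tropomyosins Tpm1 and Tpm2, which lie along actin filaments, had smaller changes. Tpm1 fell by 1.27 ± 0.23 (SE) and Tpm2 by 1.03 ± 0.19 (SE) on the log2 scale (edgeR, adjusted p = 0.0247 and 0.0305). The number of contractile genes that fell was 2, 4 and 2 without αPD-1 replicate 1, 2 or 3, and 4, 2 and 6 without αPD-1 + corin replicate 1, 2 or 3; Tagln and Cnn1 passed in each of these fits.

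The mural-marked members bear on this list, since Cnn1 and Actg2, another gene of the smooth muscle marker list that fell, mark mural cells as well, and the mural share of the members was numerically lower with corin. Without the mural-marked members, 15 contractile genes could be tested and 4 fell (Acta2, Tagln, Myl9 and Tpm1). Among the remaining members Acta2 measured 506, 1258 and 564 CPM under αPD-1 and 239, 110 and 109 CPM under αPD-1 + corin. Tagln measured 463, 1381 and 1111 CPM and 176, 159 and 134 CPM. The groups stayed apart for both genes. Acta2 fell by 2.31 ± 0.39 (SE) and Tagln by 2.61 ± 0.34 (SE) on the log2 scale (edgeR, adjusted p = 0.00885 and 0.00181), more than with all members. Cnn1 was too low to be tested, and Tpm2 had a log2 fold change of -0.97 ± 0.25 (SE) and did not pass (edgeR, adjusted p = 0.0629). The smooth muscle marker sum still averaged 89.6 CPM under αPD-1 and 8.73 CPM under αPD-1 + corin in these members, and its part in the fall of the contractile genes was not tested.

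Contractile genes are known targets of serum response factor, which binds the CArG box. The 250 bases before the start are shown for Acta2 and Myl9, the contractile genes that fell and held a match. The sequences are from RefSeq on GRCm38.p6, and capitals mark each CArG box, on either strand, with at most 1 departure in its A/T centre.
Acta2 (chr19:34255374-34255623, minus strand): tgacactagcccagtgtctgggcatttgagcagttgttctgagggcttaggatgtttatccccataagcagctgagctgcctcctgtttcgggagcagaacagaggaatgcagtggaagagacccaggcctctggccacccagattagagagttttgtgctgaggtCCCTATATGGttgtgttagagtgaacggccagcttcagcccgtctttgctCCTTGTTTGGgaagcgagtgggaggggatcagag
Myl9 (chr2:156775214-156775463, plus strand): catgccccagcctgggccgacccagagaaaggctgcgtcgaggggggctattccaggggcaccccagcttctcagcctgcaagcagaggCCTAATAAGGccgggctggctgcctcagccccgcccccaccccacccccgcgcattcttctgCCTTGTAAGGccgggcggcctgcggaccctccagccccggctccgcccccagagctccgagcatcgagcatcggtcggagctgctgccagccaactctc
In Acta2 the matches began 84 and 34 bases before the start, and in Myl9 they began 161 and 99 bases before it. Such a match stood in the window of 9.78% of the 27025 genes of the table, and 0.759% had 2 or more. Of the 16 contractile genes 15 had an entry (Tagln had none), and 4 of these held a match (Acta2, Myl9, Cnn2 and Vcl). Of the 6 that fell, 5 had an entry and 2 of these held a match. Cnn1, Tpm1 and Tpm2 fell without a match, and Cnn2 and Vcl held a match but did not pass. The matches describe the sequence and are not evidence of binding.

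Among the collagen chains tested Col11a1, Col8a2 and Col12a1 fell and the others did not pass. Col1a1, Col1a2 and Col3a1 chose the members and are given as levels only. They averaged 16468, 9785 and 9093 CPM under αPD-1 and 15864, 9709 and 13655 CPM under αPD-1 + corin, and Dcn, the proteoglycan decorin and the last gene of the rule, averaged 1083 and 2721 CPM. Of the 4 other fibrillar collagen chains tested 1 fell, and all 4 had negative log2 fold changes (median -0.22). Of 15 other collagen chains 2 fell, against 0.843% of all genes, and 14 had negative log2 fold changes, with a median of -0.48. In 5 of the 15 the αPD-1 + corin samples lay below the αPD-1 samples without overlap, as was the case for 9.96% of all genes tested. Col5a1 and Col5a2, partners of collagen I in its fibrils, had log2 fold changes of -0.23 ± 0.21 and -0.21 ± 0.21 (SE) and overlapped between the groups. Of 20 genes for collagen folding and crosslinking, 0 passed by edgeR or DESeq2, with 1 higher and 1 lower at an unadjusted p under 0.05, and their median was 0.28. Serpinh1, the collagen chaperone, measured 2300 CPM in the mean of the αPD-1 samples and 2715 CPM with corin (edgeR, adjusted p = 0.661).

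Col11a1, a chain of the minor fibrillar collagen XI (ENSMUSG00000027966, GRCm39 chr3:113824134-114014367, plus strand), was the gene that fell most among the named genes. It measured 76.2, 131 and 67.6 CPM under αPD-1 and 4.17, 1.30 and 5.48 CPM under αPD-1 + corin. The groups were more than 12-fold apart at their nearest samples, and Col11a1 fell by 4.67 ± 0.40 (SE) on the log2 scale (edgeR, adjusted p = 0.000886). Col8a2, a network-forming chain, fell by 3.63 ± 0.43 (SE) on the log2 scale (edgeR, adjusted p = 0.00491), from 55.1, 114 and 98.4 CPM to 3.99, 6.91 and 14.9 CPM. Col12a1, a collagen on the surface of fibrils, was far more abundant. It measured 1220, 1386 and 946 CPM and 464, 414 and 535 CPM, and fell by 1.33 ± 0.22 (SE) on the log2 scale (edgeR, adjusted p = 0.0189). Col11a1 and Col8a2 passed with each library left out in turn, whereas Col12a1 passed in 1 of these 6 fits (log2 fold changes from -1.47 to -1.20).

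Of 15 activated tumor fibroblast genes tested 3 fell and 0 rose (0 at an unadjusted p under 0.05 and 0 by DESeq2), with a median of -0.43. Besides Col11a1 and Col12a1, it was Lrrc15, a surface protein of TGF-β-driven tumor fibroblasts, that fell. Lrrc15 measured 191, 205 and 187 CPM under αPD-1 and 93.9, 44.5 and 57.1 CPM under αPD-1 + corin, a fall by 1.55 ± 0.26 (SE) on the log2 scale (edgeR, adjusted p = 0.0201). Other members of the list did not pass. Postn, the matrix protein periostin, had a log2 fold change of -0.44 ± 0.25 (SE), and Fap, the fibroblast activation protease, one of 0.15 ± 0.18 (SE), and both overlapped between the groups. The number of the list that fell was between 1 and 4 with single libraries left out, 1 without αPD-1 replicate 1, 2 or 3 and without αPD-1 + corin replicate 2.

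Among matrix glycoproteins and proteoglycans other than Dcn, 2 of 25 rose and 2 fell, with a median of 0.10. Fmod, the collagen-binding fibromodulin, fell by 3.25 ± 0.40 (SE) on the log2 scale (edgeR, adjusted p = 0.00563). Its levels were 56.2, 161 and 79.9 CPM under αPD-1 and 8.52, 9.51 and 15.7 CPM under αPD-1 + corin. The fall of Fmod was present without each library. Fbln5, a fibulin of elastic fibres, fell by 1.29 ± 0.27 (SE) on the log2 scale (edgeR, adjusted p = 0.0429). With members carrying immune UMIs left out its log2 fold change was -1.32 (edgeR, adjusted p = 0.0505). Ecm1, an extracellular matrix protein, rose by 1.26 ± 0.19 (SE) on the log2 scale (edgeR, adjusted p = 0.015), from 194, 150 and 171 CPM to 376, 432 and 427 CPM. The second gene that rose was Dpt, which belongs to the resting program. Of 22 matrix proteases and inhibitors 1 rose, the metalloproteinase Mmp19, by 0.97 ± 0.19 (SE) on the log2 scale (edgeR, adjusted p = 0.0348). Without the mural-marked members its log2 fold change was 0.83 ± 0.27 (SE), which did not pass (edgeR, adjusted p = 0.12).

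Genes of resting fibroblasts moved the other way. Of 17 tested, 7 rose (Ly6c1, Efemp1, Ly6a, Dpp4, Cd34, Dpt and Pi16), against 0.756% of all genes that rose, and 0 fell (0 at an unadjusted p under 0.05 and 0 by DESeq2). The median over the list was 1.17. Ly6a, the surface antigen of mesenchymal progenitors (ENSMUSG00000075602, GRCm39 chr15:74863840-74869880, minus strand), was the most abundant of them. It measured 743, 1014 and 640 CPM under αPD-1 and 2513, 2434 and 2461 CPM under αPD-1 + corin. Every αPD-1 + corin sample was at least 2 times as high as every αPD-1 sample, and Ly6a rose by 1.63 ± 0.23 (SE) on the log2 scale (edgeR, adjusted p = 0.0115). Its relative Ly6c1 (ENSMUSG00000079018, GRCm39 chr15:74915847-74920686, minus strand) measured 171, 193 and 150 CPM and 641, 554 and 675 CPM. Ly6c1 rose by 1.86 ± 0.20 (SE) on the log2 scale (edgeR, adjusted p = 0.00337), and passed with each library left out. Ly6a and Ly6c1 belong to a gene family of similar sequences, so that reads shared between members of the family could be split among them.

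The other resting genes were lower in level and rose by similar amounts. Efemp1, a fibulin of the matrix, rose by 1.65 ± 0.26 (SE) on the log2 scale (edgeR, adjusted p = 0.0166), from 105, 149 and 95.9 CPM to 344, 286 and 477 CPM. Dpp4, a dipeptidyl peptidase on progenitor fibroblasts, rose by 1.5 ± 0.30 (SE) on the log2 scale (edgeR, adjusted p = 0.0393), from 42.2, 26.4 and 14.8 CPM to 88.0, 63.1 and 86.1 CPM. Dpt, the matrix protein dermatopontin, rose by 1.26 ± 0.20 (SE), Cd34 by 1.27 ± 0.21 (SE) and Pi16 by 1.17 ± 0.23 (SE) on the log2 scale (edgeR, adjusted p = 0.0174, 0.0201 and 0.0363). In none of the 7 did the samples of the groups overlap, as was the case for 9.64% of all genes in the higher and 9.96% in the lower direction. Without the mural-marked members 7 of 17 rose as well, and the median was 1.02. The number that rose was 2, 3 and 1 without αPD-1 replicate 1, 2 or 3, and 5, 4 and 8 without αPD-1 + corin replicate 1, 2 or 3.

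**Figure D2:**
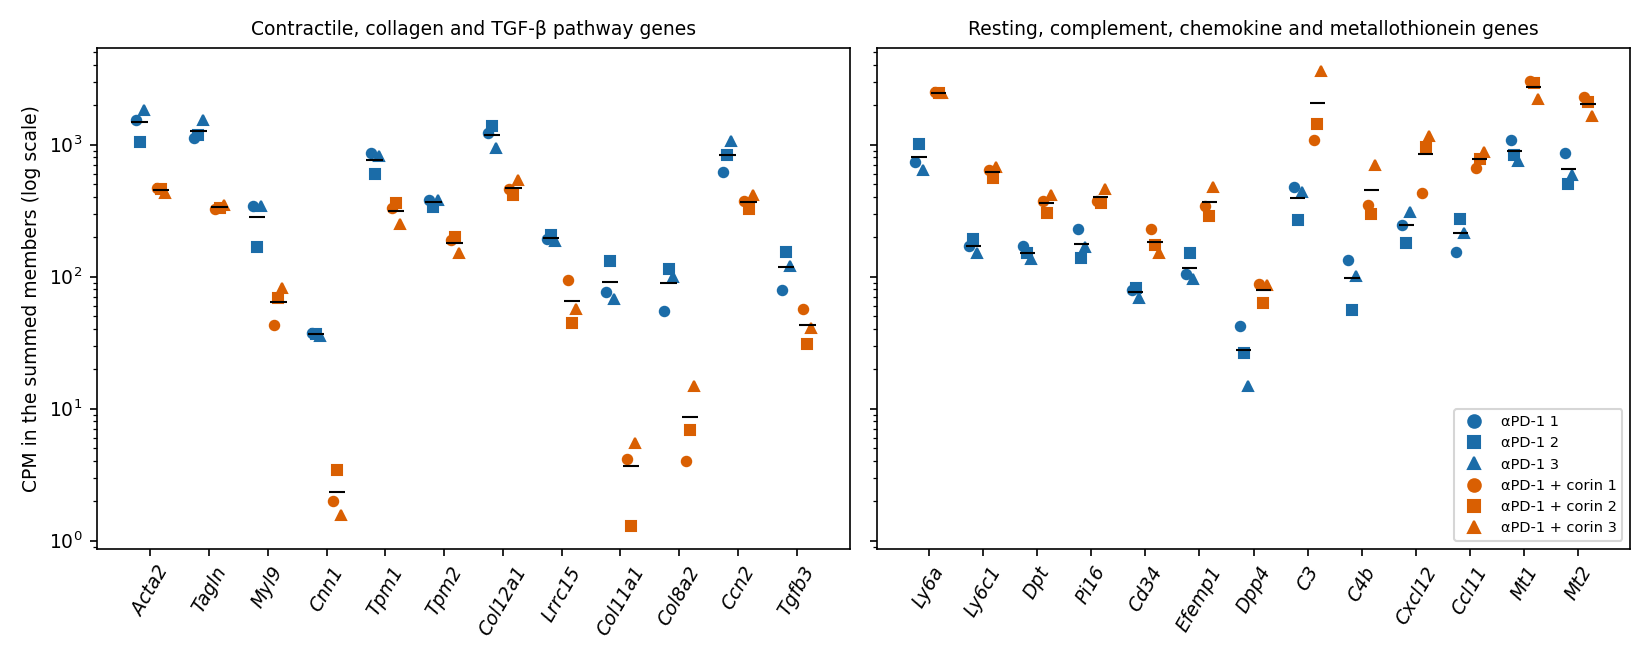
CPM of named genes in the summed members of each sample, on a log axis, with circles, squares and triangles for replicates 1, 2 and 3 and a black line for the mean of 3 samples. In each of the genes of the left panel the 3 αPD-1 samples (blue) lie above the 3 αPD-1 + corin samples (orange), and in each of the right panel they lie below.

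Chemokines and other immune mediators were higher in part. Of 24 inflammatory fibroblast genes tested 4 rose (Ccl11, Cxcl12, Pdpn and Il33) and 0 fell (1 lower at an unadjusted p under 0.05 and 0 by DESeq2), with a median of 0.92. Ccl11, the eosinophil chemokine eotaxin, measured 152, 274 and 214 CPM under αPD-1 and 666, 783 and 878 CPM under αPD-1 + corin. It rose by 1.86 ± 0.25 (SE) on the log2 scale (edgeR, adjusted p = 0.00803), and the groups lay more than 2-fold apart. Cxcl12, the ligand of CXCR4, measured 246, 180 and 306 CPM and 433, 951 and 1170 CPM. It rose by 1.80 ± 0.36 (SE) on the log2 scale (edgeR, adjusted p = 0.0363), with αPD-1 + corin replicate 1 nearest to the αPD-1 samples. Pdpn, the membrane protein podoplanin, rose by 1.45 ± 0.22 (SE), and Il33, a cytokine released from damaged stroma, by 1.33 ± 0.21 (SE) on the log2 scale (edgeR, adjusted p = 0.015 and 0.0172). Without the mural-marked members Il33 had a log2 fold change of 0.92 ± 0.28 (SE) and did not pass (edgeR, adjusted p = 0.101).

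Other inflammatory genes did not pass. Il6, the cytokine of the inflammatory fibroblast program, measured 75, 99.6 and 34.4 CPM under αPD-1 and 116, 156 and 159 CPM under αPD-1 + corin (edgeR, adjusted p = 0.159). Saa3, an acute-phase protein, measured 2329, 576 and 4211 CPM and 4710, 4737 and 4984 CPM (edgeR, adjusted p = 0.383). The αPD-1 samples alone spanned more than 7-fold in Saa3. Cxcl1, a neutrophil chemokine, overlapped between the groups (edgeR, adjusted p = 0.779). With single libraries left out, the number of the list that rose was 1 without αPD-1 replicate 1, 2 or 3 or αPD-1 + corin replicate 2, and 5 and 7 without αPD-1 + corin replicates 1 and 3.

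Complement genes were the list with the second highest median, 1.35 over 11 genes tested, of which 3 rose (C3, C4b and Cd55) and 1 fell (Cd59a). C3, the central component of the cascade (ENSMUSG00000024164, GRCm39 chr17:57510964-57535155, minus strand), measured 479, 267 and 434 CPM under αPD-1 and 1078, 1429 and 3634 CPM under αPD-1 + corin. The spread was widest among the αPD-1 + corin samples, and C3 rose by 2.38 ± 0.44 (SE) on the log2 scale (edgeR, adjusted p = 0.0288). C4b, a component of the classical pathway, measured 134, 55.9 and 101 CPM and 347, 299 and 704 CPM. It rose by 2.22 ± 0.39 (SE) on the log2 scale (edgeR, adjusted p = 0.0241), with replicate 3 again the highest. Cd55 and Cd59a both protect cells from complement and went opposite ways. Cd55 rose by 1.46 ± 0.23 (SE) on the log2 scale (edgeR, adjusted p = 0.0172), whereas Cd59a fell by 3.46 ± 0.42 (SE) on the log2 scale (edgeR, adjusted p = 0.00563), from 46.9, 65.1 and 20.9 CPM to 4.72, 3.89 and 2.35 CPM. Complement genes that rose numbered 1, 1 and 0 without αPD-1 replicate 1, 2 or 3 and 5, 2 and 5 without αPD-1 + corin replicate 1, 2 or 3, and Cd59a passed in each fit.

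Both metallothioneins tested rose, and these metal-binding proteins had the list with the highest median, 1.62. Mt1 (ENSMUSG00000031765, GRCm39 chr8:94905710-94906955, plus strand) measured 1083, 831 and 749 CPM under αPD-1 and 3049, 2904 and 2204 CPM under αPD-1 + corin. Mt2, its neighbour on the chromosome (ENSMUSG00000031762, GRCm39 chr8:94898819-94900207, plus strand), measured 867, 504 and 588 CPM and 2283, 2113 and 1651 CPM. All 3 αPD-1 + corin samples were higher in both genes. Mt1 rose by 1.62 ± 0.24 (SE) and Mt2 by 1.63 ± 0.26 (SE) on the log2 scale (edgeR, adjusted p = 0.0137 and 0.0172). Both passed without αPD-1 replicate 1 and without αPD-1 + corin replicates 1 and 3, and neither without the other three libraries, αPD-1 replicates 2 and 3 and αPD-1 + corin replicate 2.

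Metallothionein genes are induced by metals through the factor MTF1, which binds metal response elements. The pattern searched was TGCNCNC, a loose form of their core that allows any base at the positions marked N. The 250 bases before the RefSeq start of both genes on GRCm38.p6 are shown because they rose by the same amount. Capitals mark each match to this pattern on either strand. The RefSeq starts can differ from the gene starts given above.
Mt1 (chr8:94178839-94179088, plus strand): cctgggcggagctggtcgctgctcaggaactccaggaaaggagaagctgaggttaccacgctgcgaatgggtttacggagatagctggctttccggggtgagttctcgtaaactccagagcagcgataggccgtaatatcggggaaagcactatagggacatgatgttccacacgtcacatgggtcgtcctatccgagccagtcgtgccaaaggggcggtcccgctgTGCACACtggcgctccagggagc
Mt2 (chr8:94172368-94172617, plus strand): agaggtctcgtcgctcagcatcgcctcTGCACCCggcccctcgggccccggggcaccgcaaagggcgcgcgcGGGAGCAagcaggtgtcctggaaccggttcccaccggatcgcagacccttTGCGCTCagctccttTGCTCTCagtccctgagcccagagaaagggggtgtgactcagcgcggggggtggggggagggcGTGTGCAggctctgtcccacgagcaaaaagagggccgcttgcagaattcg
Mt1 held 1 match, 23 bases before the start, and Mt2 held 5. A match stood in the window of 47.2% of all genes of the table and 2 or more in 17.0%, so a single match is common.

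TGF-β signalling genes included 2 that fell of 23 tested and 0 that rose (2 higher at an unadjusted p under 0.05 and 0 by DESeq2), with a median of -0.27. Tgfb3, a TGF-β ligand, measured 79.7, 153 and 121 CPM under αPD-1 and 56.9, 30.7 and 40.7 CPM under αPD-1 + corin, a fall by 1.44 ± 0.28 (SE) on the log2 scale (edgeR, adjusted p = 0.0367). Ccn2, the matricellular connective tissue growth factor and a TGF-β target, fell by 1.18 ± 0.24 (SE) on the log2 scale (edgeR, adjusted p = 0.0387). Its levels of 617, 832 and 1068 CPM and 372, 328 and 411 CPM did not overlap. Tgfb1, the most studied ligand, overlapped between the groups, with a log2 fold change of 0.19 ± 0.32 (SE). Without the mural-marked members 4 of 22 fell. Both calls were lost without αPD-1 replicate 1, 2 or 3 and without αPD-1 + corin replicate 2, and that of Ccn2 also without αPD-1 + corin replicate 1.

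Of 28 growth factors and receptors 1 fell and 1 rose. Nrg1, the ligand neuregulin of ERBB receptors (ENSMUSG00000062991, GRCm39 chr8:32303906-33374825, minus strand), measured 108, 198 and 149 CPM under αPD-1 and 28.5, 10.4 and 25 CPM under αPD-1 + corin. It fell by 2.81 ± 0.35 (SE) on the log2 scale (edgeR, adjusted p = 0.00563), and passed with each library left out. Vegfd, a lymphatic growth factor, rose by 1.56 ± 0.27 (SE) on the log2 scale (edgeR, adjusted p = 0.0201), from 48.0, 51.9 and 33.2 CPM to 99.0, 123 and 178 CPM. The PDGF receptor Pdgfra did not pass (log2 fold change 0.84 ± 0.20 SE, edgeR, adjusted p = 0.078), nor did Pdgfrb (-0.59 ± 0.26 SE, edgeR, adjusted p = 0.314). Of 12 Wnt and BMP genes 1 fell, Dkk3, a secreted protein of the Dickkopf family, by 0.94 ± 0.18 (SE) on the log2 scale (edgeR, adjusted p = 0.0336). Sfrp2, a secreted Wnt antagonist, measured 312 CPM in the mean of the αPD-1 samples and 719 CPM with corin (edgeR, adjusted p = 0.0681).

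The largest rises over all genes that met the naming criteria (at least 20 CPM, no overlap and at least 10% of the highest level in the gates for other cells) held further secreted proteins. Prg4, the lubricin of joints and connective tissue (ENSMUSG00000006014, GRCm39 chr1:150325163-150342009, minus strand), measured 98.4, 113 and 101 CPM under αPD-1 and 767, 904 and 546 CPM under αPD-1 + corin. It rose by 2.83 ± 0.24 (SE) on the log2 scale (edgeR, adjusted p = 0.000886), and the groups were more than 4-fold apart at their nearest samples. Dmkn and Sbsn, dermokine and suprabasin, are neighbouring genes best known from skin. Sbsn rose from 38.7, 43.7 and 22.1 CPM to 319, 234 and 128 CPM, by 2.70 ± 0.36 (SE) on the log2 scale (edgeR, adjusted p = 0.00803). Dmkn measured 1.17, 7.12 and 0 CPM and 269, 74.8 and 24.3 CPM, and rose by 5.38 ± 1.08 (SE) on the log2 scale (edgeR, adjusted p = 0.0386). Its αPD-1 + corin samples spanned more than 10-fold. With single libraries left out its log2 fold change ran from 4.06 to 7.61, and it passed in 2 of the 6 fits, those without αPD-1 + corin replicate 1 or 3. Krt10 of keratinocytes was present at 7.15 to 13.9 CPM in the members.

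Nos2, the inducible nitric oxide synthase, measured 36.3, 19.3 and 2.46 CPM under αPD-1 and 147, 238 and 160 CPM under αPD-1 + corin. It rose by 3.21 ± 0.49 (SE) on the log2 scale, and by 3.51 without the members that carried an immune UMI (edgeR, adjusted p = 0.015 and 0.0147). Cxcl13, the B cell chemokine, measured 2.34, 2.03 and 3.69 CPM and 42.1, 50.6 and 13.3 CPM, a rise by 3.76 ± 0.61 (SE) on the log2 scale (edgeR, adjusted p = 0.0174). Macrophage markers were highest in the same αPD-1 + corin replicates 1 and 2, and Cxcl13 rose by 3.86 (edgeR, adjusted p = 0.0165) without the members with immune UMIs. Lgals3, the lectin galectin, rose by 2.01 ± 0.32 (SE), Lbp, a lipopolysaccharide-binding protein, by 1.98 ± 0.41 (SE), Thbd, the anticoagulant thrombomodulin, by 2.13 ± 0.41 (SE) and Ampd3, an AMP deaminase, by 1.92 ± 0.40 (SE) on the log2 scale (edgeR, adjusted p = 0.0172, 0.0426, 0.0332 and 0.0449). With single libraries left out Lbp passed in 1 of the 6 fits, without αPD-1 + corin replicate 3, and Lgals3, Thbd and Ampd3 in 2. Lgals3 reached 18.3% of its level in myeloid-gated cells. Lyz2 and Apoe rose too (log2 fold changes of 5.15 and 2.84) but stood at 1.16% and 5.28% of their myeloid-gated level, and without the members with immune UMIs Apoe had a log2 fold change of 2.36 and did not pass (edgeR, adjusted p = 0.225) and Lyz2 was too low to test.

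The largest falls were Col11a1, Cnn1, Col8a2, Cd59a, Camk4, Fmod, Cpxm2, Rgs4, Pawr, Nrg1, Pdgfrl and C1qtnf3. Rgs4, a regulator of G protein signalling, fell by 2.94 ± 0.41 (SE) on the log2 scale (edgeR, adjusted p = 0.00992), from 112, 73.2 and 72.6 CPM to 5.26, 19 and 11.7 CPM. C1qtnf3, a secreted protein of the C1q and TNF family, was the most abundant of these 12. It measured 333, 783 and 632 CPM under αPD-1 and 85.8, 112 and 127 CPM under αPD-1 + corin, and fell by 2.44 ± 0.32 (SE) on the log2 scale (edgeR, adjusted p = 0.00734). Pdgfrl, a PDGF receptor-like protein, fell by 2.74 ± 0.25 (SE), and Cpxm2, a carboxypeptidase-like protein, by 3.12 ± 0.32 (SE) on the log2 scale (edgeR, adjusted p = 0.00137 and 0.00337). Pdgfrl, Cpxm2 and C1qtnf3 passed with each library left out. Pawr, a regulator of apoptosis, fell by 2.91 ± 0.51 (SE), and Camk4, a calcium-dependent kinase that T cells also express, by 3.34 ± 0.60 (SE) on the log2 scale (edgeR, adjusted p = 0.0243 and 0.0247).

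The fit was repeated without the mural-marked members. In the 921 members with fewer than 3 mural UMIs, 100 of 8291 genes rose (1.21%) and 156 fell (1.88%). Of the 25 named genes that rose with all members 23 passed again, all but Mmp19 and Il33, and of the 21 that fell all 19 that could be tested passed. All 19 falls were larger without the mural-marked members, with a median of -3.15 against -2.44, whereas 4 of the 25 rises were larger. Eln, the elastin gene, and Igfbp3, an IGF-binding protein, were chosen after their values were seen. In these members Eln averaged 2254 ± 854 CPM (SD, n = 3) under αPD-1 and 222 ± 205 CPM under αPD-1 + corin, and Igfbp3 averaged 480 ± 295 CPM and 37.4 ± 16.9 CPM (edgeR, adjusted p = 0.0137 and 0.00181). With all members neither gene passed. In mural-marked members Eln averaged 1608 CPM under αPD-1 and 888 CPM under αPD-1 + corin, and Igfbp3 averaged 187 and 340 CPM. The groups overlapped in both genes there. For neither gene did the difference of the change between mural-marked and other members pass (edgeR, adjusted p = 0.666 and 0.278).

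In the 222 mural-marked members 1 gene, Apoe, rose and 0 fell of 5221 tested by edgeR, with 195 genes at an unadjusted p under 0.05. DESeq2 was not run on these sums. They held between 19 and 95 cells per sample. A test of whether the change differed between mural-marked and other members called 0 of 8216 genes in either direction, with 701 at an unadjusted p under 0.05. In the mural-marked members Acta2 averaged 2881 ± 1952 CPM (SD, n = 3) under αPD-1 and 1599 ± 187 CPM under αPD-1 + corin, with αPD-1 replicate 2 at 651 CPM, and the groups overlapped. A difference from the other members was therefore not detectable at this number of cells.

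**Figure D3:**
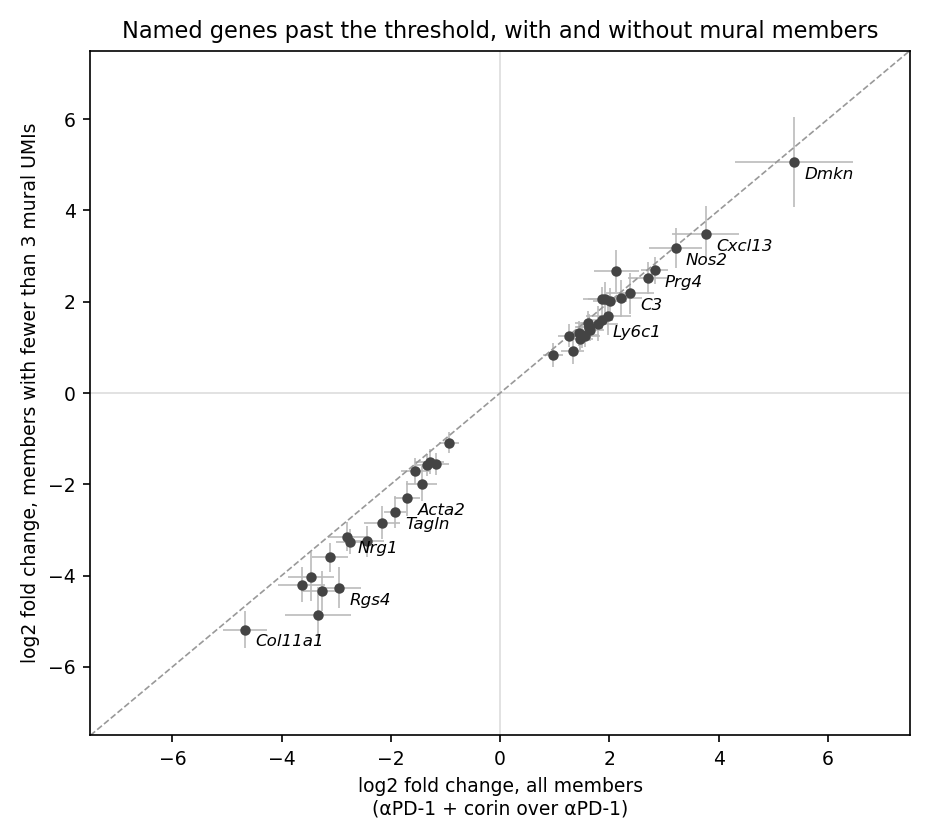
Log2 fold change (αPD-1 + corin over αPD-1) of the named genes that passed the threshold, in all members (horizontal) and in members with fewer than 3 mural UMIs (vertical); points are genes, bars are standard errors and the dashed line marks equal values. The 19 genes that fell lie below the line, with a median of -2.44 on the horizontal and -3.15 on the vertical axis.

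Contractile and resting genes were also counted in single members. Each member was thinned to 2000 UMIs, which left out 4 members of the αPD-1 group and 45 of the αPD-1 + corin group, and the UMIs of Acta2, Tagln and Myl9 and those of 7 resting genes (Ly6a, Ly6c1, Pi16, Cd34, Dpt, Dpp4 and Efemp1) were added up. These genes were chosen after their values were seen, so their sums are a description with no test. At least 5 resting UMIs were found in 17.9%, 16.7% and 18.1% of the members under αPD-1 and in 47.8%, 46.0% and 47.1% under αPD-1 + corin. At least 5 contractile UMIs were found in 29.5%, 15% and 31.9% and in 9.67%, 12.7% and 9.03%. Both were found in 0% to 3.33% of the members per sample, and in αPD-1 replicate 2, where the share with both was 3.33%, neither was found in 71.7%. Neither was found in 53.8% and 51.4% of the members of the other αPD-1 samples and in 42.5%, 42.7% and 45.2% under αPD-1 + corin. In members with fewer than 3 mural UMIs the share with at least 5 contractile UMIs averaged 16.3% ± 3.04 (SD, n = 3) and 4.64% ± 1.40, and that with at least 5 resting UMIs 22.3% ± 5.22 and 54.7% ± 2.81.

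**Figure D4:**
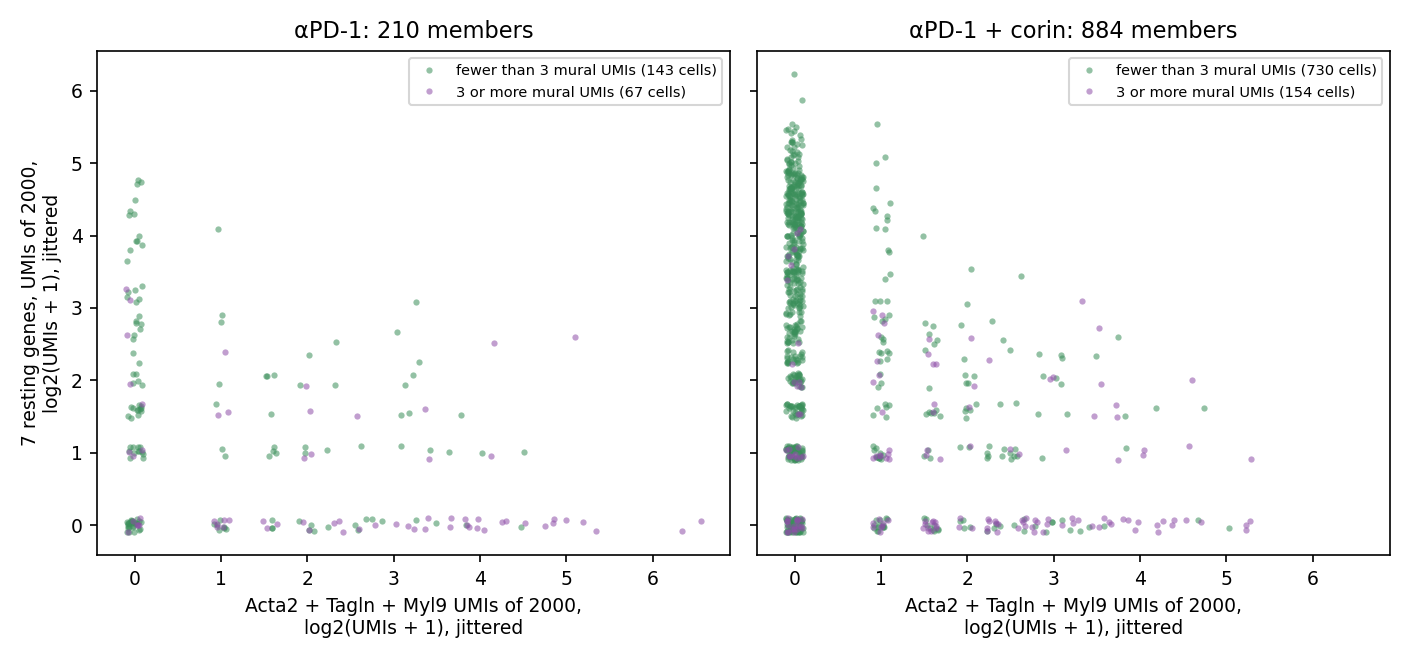
Contractile UMIs (Acta2, Tagln and Myl9, horizontal) and UMIs of 7 resting genes (vertical) in each member thinned to 2000 UMIs, as log2(UMIs + 1) with jitter, for αPD-1 and αPD-1 + corin members in separate panels; purple points had at least 3 mural UMIs and green points fewer. The cloud at the upper left, with resting and few contractile UMIs, is larger in the αPD-1 + corin panel.

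The share of members with a UMI was compared for 28 genes after the same thinning. The samples did not overlap in 11 of them (Tagln, Ly6a, Ly6c1, Cd34, Dpt, Fap, Cxcl12, Ccl2, Mmp3, Pdpn and Lum), each with an exact permutation p of 0.1 and 0.255 after adjustment over the 28. Ly6a was found in 34.6%, 45.0% and 37.5% of the members under αPD-1 and in 70.3%, 72.7% and 69.7% with corin added. Tagln was found in 41.0%, 33.3% and 52.8% and in 19%, 21.3% and 14.2%, and Cxcl12 in 19.2%, 13.3% and 26.4% and in 36.8%, 42.0% and 45.2%. Among melanoma-gated cells thinned in the same way, at most 1.03% had a UMI of Ly6a and at most 0.0970% of Tagln. For Cxcl12 the share was 0%. These cells held a median of 17643 to 45912 UMIs per sample before thinning, against 7128 to 13973 in the members. Thinning thus dilutes free RNA more in them, and free RNA in the members was not measured. The share with Fap was higher with corin after thinning (13.7% and 17.1%) but lower before it (47.5% and 42.9%), and no order is read from it. Acta2, at 35.8% ± 10.8 (SD, n = 3) and 24.2% ± 5.34, and Pi16, at 19.1% ± 0.979 and 22% ± 3.52, overlapped. Without thinning, Ly6a was found in 60.3% and 81.6% and Tagln in 57.3% and 27.4% of the members.

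Interferon and antigen presentation genes did not pass. Of 23 type I interferon-stimulated genes, 20 interferon gamma response genes and 20 MHC class I presentation genes 0 passed by edgeR or DESeq2, and at an unadjusted p under 0.05 there were 5, 0 and 3 higher and 0 lower. Their medians were 0.21, 0.15 and 0.32. Without αPD-1 + corin replicate 3, 1 type I gene was higher and 4 interferon gamma response and 2 MHC class I genes were lower. B2m and Iigp1, an interferon gamma-induced GTPase, then had log2 fold changes of -0.12 and -0.90 and did not pass, against 0.33 and 0.14 with all libraries. B2m, the light chain of MHC class I, averaged 2808 CPM under αPD-1 and 3526 CPM with corin (log2 fold change 0.33 ± 0.34 SE), and Isg15, a ubiquitin-like interferon product, 256 and 289 CPM (0.17 ± 0.19 SE). Of 6 MHC class II genes 0 passed by edgeR or DESeq2 (1 higher at an unadjusted p under 0.05). Cd74, the invariant chain, had a UMI in 3.56% and 5.29% of the thinned members and in 11.8% and 19.7% of melanoma-gated cells. The share in melanoma-gated cells can hold their own expression as well as free RNA, and these were not told apart.

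Genes of glycolysis and stress did not pass either. All 22 hypoxia and glycolysis genes tested had positive log2 fold changes, with a median of 0.54, but 0 passed by edgeR or DESeq2 and 5 were higher at an unadjusted p under 0.05. Ldha, lactate dehydrogenase, was uneven among the samples, at 483, 557 and 483 CPM with αPD-1 and at 1044, 1044 and 464 CPM with αPD-1 + corin. Replicate 3 stood with the αPD-1 samples, and without it 11 of the list passed. Of 17 ER stress genes and 25 immediate early and heat shock genes 0 passed by edgeR, and DESeq2 called 1 of the latter higher. Unadjusted p-values under 0.05 were 4 higher and 3 lower, and 1 higher and 2 lower. Fos, an immediate early factor, averaged 1740 and 1547 CPM. Of 13 cholesterol synthesis genes 0 passed by either tool, with 1 higher at an unadjusted p under 0.05.

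Of 26 cell cycle genes 0 passed by edgeR or DESeq2, with 0 at an unadjusted p under 0.05, and their median was -0.14. Members with at least 3 UMIs of Mki67, Top2a, Birc5, Cdk1 and Ccnb1 together made up 17.5%, 15% and 18.9% under αPD-1 and 15.6%, 13.7% and 7.55% under αPD-1 + corin, and the groups overlapped (exact permutation test, p = 0.2). Of 11 genes of the CoREST complex, the target of corin, 0 passed by edgeR or DESeq2 and 0 at an unadjusted p under 0.05. Kdm1a, its histone demethylase, averaged 76.1 CPM under αPD-1 and 82.3 CPM under αPD-1 + corin (log2 fold change 0.12 ± 0.18 SE), so the interval of about 2 SE reaches changes in both directions. Of 24 neuronal genes, a class that CoREST represses in other cells, 2 were high enough to test and 0 passed by edgeR (0 at an unadjusted p under 0.05), and DESeq2, which tested more of them, called 1 higher (Vgf). Of 20 mesenchymal transcription factors 0 passed by edgeR, with 1 higher and 2 lower at an unadjusted p under 0.05 and 1 lower by DESeq2. Prrx1, a factor of stromal fibroblasts, averaged 351 and 415 CPM (log2 fold change 0.24 ± 0.22 SE).

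The change in fibroblasts was set against that in melanoma-gated cells of the same libraries (368 to 1682 cells per sample), with the library as a block. The block removes a factor common to both sums of a library, but not free RNA, which adds to the counts. The change was more positive in fibroblasts for 37 of 14760 genes (0.251%) and more negative for 48 (0.325%). Of the 46 named genes that passed in the members 14 also passed this test of the difference, and 11 of the 46 reached 10 CPM in melanoma-gated cells. Levels are given here in CPM on the common scale of this fit over both kinds of cell, and so differ somewhat from those of the members alone. Metallothioneins were abundant in both. Mt1 averaged 929 and 2937 CPM in the members of the αPD-1 and αPD-1 + corin samples and 1859 and 1691 CPM in melanoma-gated cells, a difference of the log2 fold changes of 1.78 ± 0.29 (SE; edgeR, adjusted p = 0.0153). Mt2 behaved likewise, with a difference of 1.89 ± 0.34 (SE; edgeR, adjusted p = 0.021). Lgals3 averaged 94.1 and 393 CPM in the members and 458 and 562 CPM in melanoma-gated cells, a difference of 1.78 ± 0.32 (SE; edgeR, adjusted p = 0.0196).

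The most negative differences held genes with little RNA in melanoma cells. Tagln averaged 1335 and 362 CPM in the members and 0.206 and 0.760 CPM in melanoma-gated cells, where it rested on 13 and 85 UMIs. Its difference of -3.98 ± 0.49 (SE; edgeR, adjusted p = 0.00345) thus includes a rise from near 0, as do those of Myo1d and Ptgs2. Cd59a was measurable in both, at 46.3 and 3.95 CPM in the members and 10.0 and 11.1 CPM in melanoma-gated cells, with a difference of -3.58 ± 0.43 (SE; edgeR, adjusted p = 0.00345). The counts of this test turn on single libraries. Without αPD-1 replicate 1, 2 or 3 it called 10, 6 and 0 genes more positive and 12, 29 and 1 more negative. Without αPD-1 + corin replicate 1 or 3 it called 97 and 237 more positive and 109 and 373 more negative, and without replicate 2 it called 99 more negative. With at most 4000 genes per barcode it called 0 in either direction, with 921 at an unadjusted p under 0.05. The planned test against endothelial-gated cells was not run, since αPD-1 replicate 2 held 8 of them and 10 per sample had been required.

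**Figure D5:**
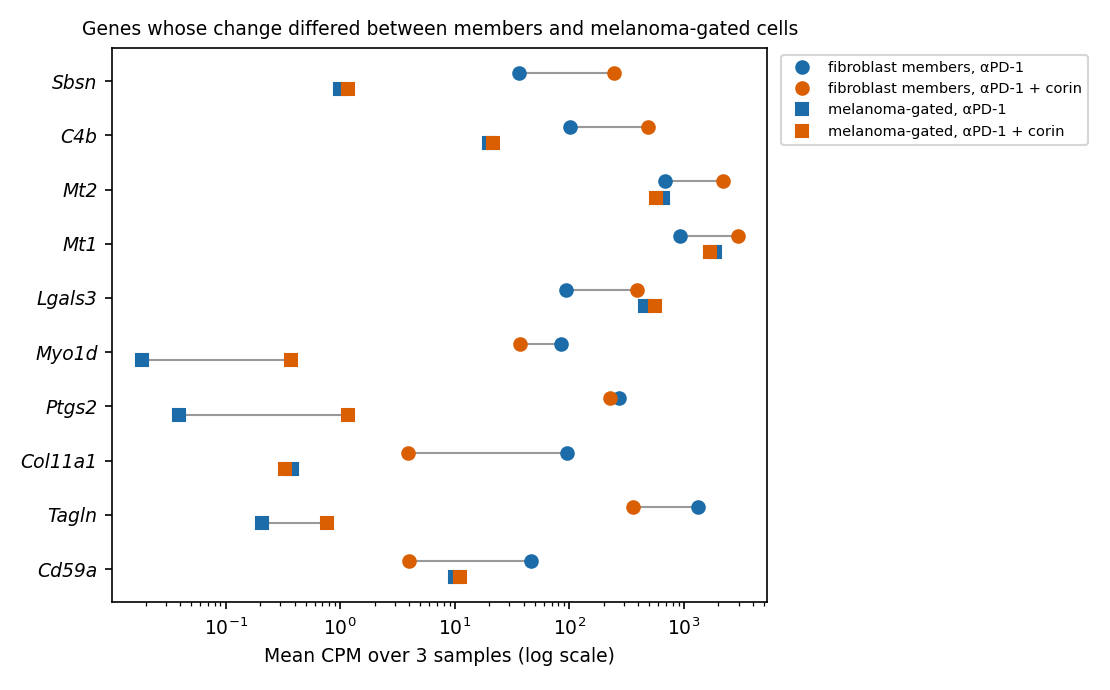
Mean CPM over 3 samples, on a log axis, of the genes whose change differed most between fibroblast members (circles) and melanoma-gated cells (squares), for αPD-1 (blue) and αPD-1 + corin (orange), with a line joining the groups. Mt1 went from 929 to 2937 CPM in the members and from 1859 to 1691 CPM in melanoma-gated cells; Myo1d, Ptgs2, Col11a1 and Tagln stayed below 1.2 CPM in melanoma-gated cells.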

How the data were processed

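Droplet single-cell RNA-seq of 6 samples was analysed, 3 per group. The deposited matrices hold UMI counts per gene and barcode, which the authors made with Cell Ranger 8.0 on GRCm39, without normalization; the submitters' processing notes also name Seurat 5.0.11. All 52899 barcodes had at least 500 UMIs. The study limited barcodes to 600 to 4000 genes and removed doublets with DoubletFinder; here the upper limit was an alternative and no doublet caller was run, so that members with immune UMIs were left out as a check. The members, gene lists and tests were chosen with earlier results of these data known.

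UMIs of the members were summed per sample and tested with edgeR 4.0.16 (quasi-likelihood, TMM, filterByExpr) in R 4.3.3, with DESeq2 1.42.0 as an alternative. SEs were derived from the quasi-likelihood F. Shares were compared by exact permutation tests in scipy 1.17.1. Sums held 790712 to 5485834 UMIs. Named genes were up to 4 per list past the threshold by size of change (or, with fewer than 2, the most abundant), plus the 12 largest rises and falls over all genes and the 5 largest differences from melanoma-gated cells each way, with at least 20 CPM. The last 2 sets also needed at least 10% of the highest level in gates for other cells, and the 12 needed groups without overlap. The labels do not say whether replicate numbers pair the samples, so the main fit had no block for them. Same-numbered deviations from the group means had correlations of -0.17, -0.02 and -0.03, which cannot exclude a shared batch. Tested on simulated counts, the members' fit found 185 of 200 genes changed 4-fold with 9 false calls among 9339 genes, and the comparison with melanoma-gated cells found 122 of 200 with 4 false calls among 14702. The simulation gave all genes the same dispersion, that of the members, in both kinds of cell. It held no differences between libraries of a group beyond their size, so these rates do not carry over to the data.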

Additional observations from a re-analysis of the deposited data

Results flagged for a closer look

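The change with corin differed between the fibroblast members and melanoma-gated cells of the same libraries for 37 genes in the positive and 48 in the negative direction, by edgeR's test of the difference. The 10 given here had the largest differences, 5 each way, among those that met the naming criteria (edgeR, adjusted p from 0.00345 to 0.021). Differences of the log2 fold changes are given as fibroblast minus melanoma-gated. More positive in fibroblasts were Sbsn (2.49), C4b (2.22), Mt2 (1.89), Mt1 (1.78) and Lgals3 (1.78). More negative were Myo1d (-5.40), Ptgs2 (-4.71), Col11a1 (-4.44), Tagln (-3.98) and Cd59a (-3.58). In melanoma-gated cells Myo1d rested on 1 and 42 UMIs in the αPD-1 and αPD-1 + corin samples, Ptgs2 on 3 and 128, Tagln on 13 and 85 and Col11a1 on 27 and 36. In the members Ptgs2 had a log2 fold change of -0.30 and did not pass (edgeR, adjusted p = 0.713).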

How the results depend on the processing

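None of the 46 named genes past the threshold changed direction under an alternative in which it could be tested. In mural-marked members alone 31 could be tested, after thinning 33, with at most 4000 genes 38 and with equal numbers of members 42. Of these 31, 13, 18 and 18 lost their calls. Pi16, a resting gene outside the 46, had a log2 fold change of -0.63 in mural-marked members alone, where it did not pass and the groups overlapped. The counts of higher and lower genes, 70 and 78, moved by less than 1.5 times with RLE size factors, other marker, mitochondrial and melanocyte limits, and without members with immune UMIs or cycling members. DESeq2, under which the median log2 fold change of all genes was -0.11 in place of -0.01, called 159 higher and 117 lower. No filter on low counts gave 412 and 378, equal numbers of members per sample 29 and 37, and members thinned to 2000 UMIs 25 and 20. At most 4000 genes gave 42 lower. With mural-marked members left out 156 were lower, and with these members alone 1 was higher and 0 lower. With single libraries left out the counts ran from 9 to 284 higher and from 13 to 339 lower, and without mural-marked members as well from 12 to 424 higher (25, 12 and 27 without αPD-1 replicate 1, 2 or 3 and 110, 43 and 424 without αPD-1 + corin replicate 1, 2 or 3) and from 38 to 617 lower. Without an αPD-1 library 15 to 21 of the 46 named genes passed. The cause of these shifts was not tested.

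With the replicate block 75 were higher and 69 lower, and Col12a1, Fbln5, Mmp19, Tgfb3, Ccn2 and Dkk3 lost their calls; with the block and without mural-marked members 116 were higher and 189 lower. Of the 37 more positive and 48 more negative differences from melanoma-gated cells, 0 and 0 were called with at most 4000 genes, and 58 and 156 without mural-marked members. Single libraries left out gave 0 to 237 and 1 to 373. The difference in the share of kept barcodes ran from 2.01 to 2.58 percentage points under other limits and from 1.19 to 3.10 with single libraries left out, and 11 to 16 genes had shares without overlap. The test against endothelial-gated cells was not run. Between 60 and 80 members per αPD-1 sample limit what can be detected.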
